A study of Mus musculus with 6 samples.

Results

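The genes described here are 10 members of the NF-kB system: the subunits Nfkb1, Nfkb2, Rel, Rela and Relb, the inhibitors Nfkbia, Cyld and Tnfaip3, the kinase Ikbkb and the adaptor Card9. They were chosen by symbol, 1 gene model each, from a deposited table of 37867 gene models, and all 10 were found, each in a single model that the authors had tested. The table compares miR-181a1/b1 knockout (KO) mice, which carry a deletion of the genes for miR-181a-1 and miR-181b-1, with wild type (WT) mice, both of the C57bl6 strain. The cells of both genotypes were sorted CD4+CD8+ thymocytes, also called double-positive (DP) thymocytes, the stage at which developing T cells are tested for a useful receptor. There were 3 libraries of each genotype, the authors gave 1 FPKM value per genotype, and values of the single libraries and their depth were not used here. The labels give neither the age of the mice nor the cells in which the genes are missing, and they do not say whether the libraries came from separate animals. All 10 markers listed for DP thymocytes were found, at 72.3 to 1241 FPKM in KO cells and 134 to 1683 FPKM in WT cells. Of these, Aqp11 was lower in KO cells, at 72.3 FPKM against 137 FPKM in WT cells (q = 0.00229 per the authors' deposited table). The other 9 did not pass a q under 0.05, and 15.3% of all tested models were lower at that q.

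NF-kB is a family of transcription factors that act as pairs of subunits. In resting cells the inhibitor IkB-alpha, the product of Nfkbia, holds the pairs in the cytoplasm until the IkB kinase marks it for destruction. Receptors reach that kinase through adaptor complexes and ubiquitin chains, which Cyld and the Tnfaip3 product A20 take down, and active NF-kB in turn induces Nfkbia and Tnfaip3 in a negative feedback loop. In thymocytes the pathway is known for roles in survival and in the selection of T cells.

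The deleted genes and the single seed match among the 10 genes are shown because they link the genotype to the list by sequence alone. The 2 mature microRNAs, in RefSeq's GRCm38.p6 annotation, share their seed (bases 2 to 8, in capitals) and lie on the forward strand of chromosome 1, at chr1:137966468-137966490 for miR-181a-5p and chr1:137966650-137966673 for miR-181b-5p. The same mature sequences are also made from a pair of genes on chromosome 2, which the labels do not name as deleted.
mmu-miR-181a-5p: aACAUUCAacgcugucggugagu
mmu-miR-181b-5p: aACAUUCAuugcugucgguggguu
Cyld 3′ UTR site: attctctggttgacTGAATGTg

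The letters TGAATGT, which pair with the whole seed, occurred once in the reference 3′ UTRs of the 10 genes, in Cyld, at chr8:88749814-88749835 (GRCm38, forward strand, capitals mark the match). This site lies 2815 bases into a 3′ UTR of 4932 bases. Rel has a 3′ UTR of 5418 bases without the letters, and the other 8 genes have 3′ UTRs of 133 to 1821 bases, also without them. Among all coding genes with a 3′ UTR, 15.4% hold the letters, and among 440 expressed genes with a 3′ UTR of 4000 to 6000 bases 47.3% do. A match is a description of the sequence, and was not tested as a site of action.

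Of the 10 genes, 3 were lower in KO cells with q under 0.05 per the authors' deposited table, none was higher and 7 did not pass. Over that table, passing models made up 17.1% of the 13834 tested, 15.3% lower and 1.79% higher in KO cells, so the threshold was passed often. That is 2120 models lower and 247 higher, and with upper quartile scaling it was 1204 lower and 843 higher. The 3 that fell were Card9, Nfkbia and Rela. The median log2 ratio of KO over WT was -0.56 over the 10 genes and -0.17 over all tested models. Positions in brackets after a gene name are the spans listed for the gene models in mm9. Those of Nfkb2, Nfkbia, Cyld and Ikbkb are shared with other models, so they need not be the bounds of the gene. Every ratio below is KO over WT, and its error is the standard error implied by the authors' test statistic. No source used here says how that statistic treats the spread between libraries.

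**Figure D1:**
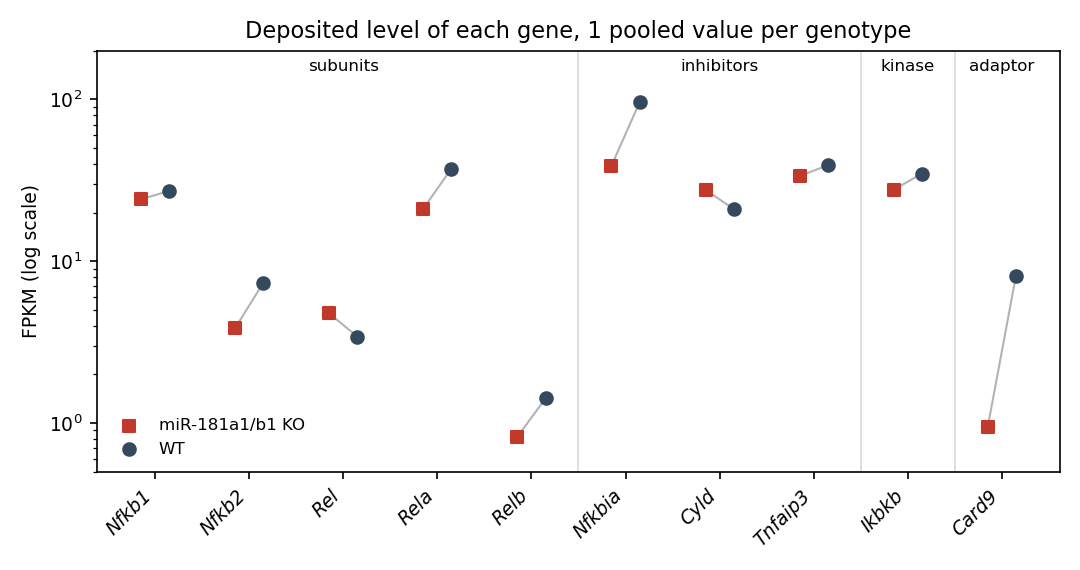
Deposited FPKM (log scale) of the 10 genes, with a square for the KO value and a circle for the WT value, 1 pooled value per genotype and no error bar. Card9 stood at 0.948 FPKM in KO and 8.15 FPKM in WT cells and Nfkbia at 38.9 and 96.1 FPKM, while Rel and Cyld stood higher in KO cells without passing the threshold.

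Across the whole table the ratio fell as the GC content of the transcript rose, and this moves with the results for the 10 genes. Spearman's rho between log2 ratio and GC content was -0.76 over 8996 coding genes whose mean was 1 FPKM or more. This rho runs across genes, and genes are no independent replicates. Sorted into 10 groups of equal size by GC content, 71.8% of the group richest in G and C were lower in KO cells at that q, and 0.222% of the poorest group. The trend of the ratio with GC content and transcript length was therefore fitted and subtracted, and what is left is called the adjusted value. Of the 8996 genes, 1.86% passed a Benjamini-Hochberg adjusted p under 0.05 on adjusted values, 1.00% lower and 0.856% higher. Whether the trend is technical or belongs to the genotype was not tested.

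Among the subunits, Rela passed the threshold as deposited and the other 4 did not. Rela (chr19:5637489-5648130 in mm9), the main activating subunit of the classical pathway, stood at 21.1 FPKM in KO cells and 37.4 FPKM in WT cells (log2 ratio -0.83, implied standard error 0.26, q = 0.0126 per the authors' deposited table). With ratios centred on their median it no longer passed, at -0.66. The transcript has 59.4% GC, in the group richest in G and C, whose median log2 ratio was -1.32, and the ratio of Rela lay at percentile 81.8 of that group. Its adjusted value was 0.41, on the other side of 0, with a 95% interval of -0.10 to 0.92 and a Benjamini-Hochberg adjusted p of 0.71.

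Nfkb1 (chr3:135247618-135354511), the precursor of the usual partner of Rela, stood at 24.1 FPKM in KO cells and 27.2 FPKM in WT cells. Its log2 ratio was -0.17, with a 95% interval of -0.70 to 0.36 (q = 0.776 per the authors' deposited table), and it turned to 0.10 with upper quartile scaling. Nfkb2 (chr19:46378082-46401646), the precursor subunit of the alternative pathway, stood at 3.85 against 7.35 FPKM, a log2 ratio of -0.93 with an interval of -1.69 to -0.17 and q = 0.0802 per the authors' deposited table. Relb (chr7:20191570-20214787), the partner of the Nfkb2 product, was the least abundant subunit in both genotypes, at 0.821 FPKM in KO cells and 1.42 FPKM in WT cells (log2 ratio -0.79, interval -1.77 to 0.19). Relb and Nfkb2 are as rich in G and C as Rela, at 61.1% and 59.3%, and their adjusted values were 0.66 and 0.28. Nfkb2 shares its span in the table with the model AK029443, at 5.33 FPKM in KO and 7.28 FPKM in WT cells, and with Psd at 0.0431 and 0.132 FPKM, and how reads were divided between them is not given.

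Rel (chr11:23641728-23670970), which encodes c-Rel, was the only subunit whose ratio was positive as deposited, at 4.77 FPKM in KO cells and 3.41 FPKM in WT cells (log2 ratio 0.48, interval -0.12 to 1.08, q = 0.321 per the authors' deposited table). It is also the subunit poorest in G and C, at 42.5%. As deposited, Rel had the highest ratio of the 5, Nfkb1 with 53.1% GC came next, and Relb, Rela and Nfkb2, with 59.3% to 61.1% GC, had the lowest. The adjusted values of all 5 subunits were above 0, from 0.18 for Rel to 0.66 for Relb, and none passed.

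As deposited, the 5 subunits summed to 54.6 FPKM in KO cells and 76.8 FPKM in WT cells. All models of the table summed to 297352 FPKM in KO and 360688 FPKM in WT cells, and list sums given below carry that difference too. Nfkb1 made up 44.2% of the subunit sum in KO and 35.4% in WT cells, Rela 38.5% and 48.7%, and Rel 8.73% and 4.45%. Nfkb1 was thus the most abundant subunit in KO cells and Rela in WT cells. The Rel transcript stood at 0.226 per Rela transcript in KO cells and 0.0913 in WT cells on the per-length FPKM scale. These shares carry no error, since 1 pooled value per genotype was given, and they carry the same trend with GC content.

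**Figure D2:**
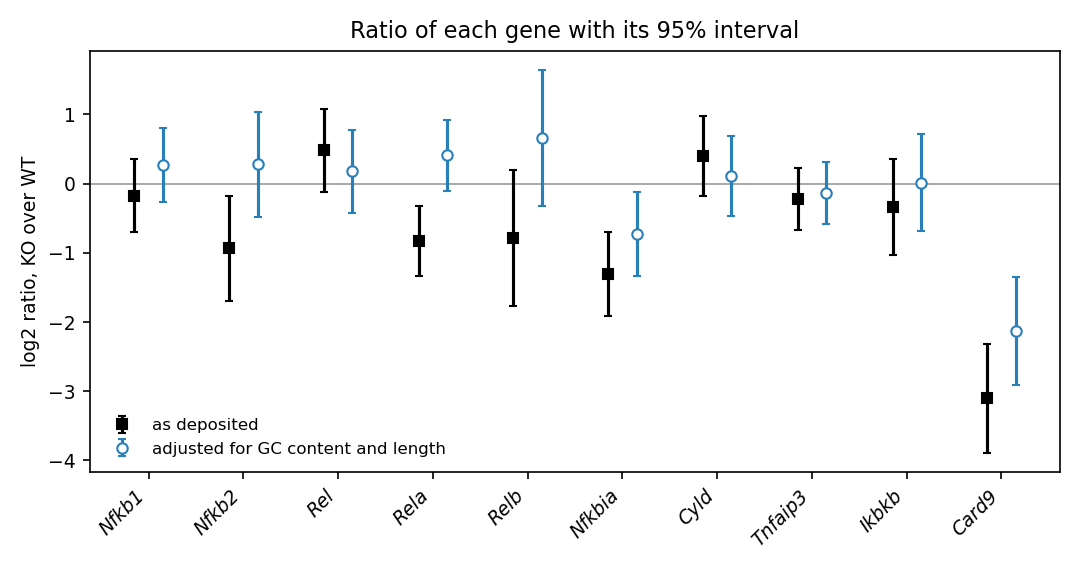
Log2 ratio of KO over WT for each gene, as deposited (squares) and adjusted for GC content and length (open circles), with 95% intervals from the implied standard error. Card9 stayed far below 0 in both (-3.10 and -2.13), Nfkbia was at -1.31 as deposited and -0.73 adjusted, and Rela at -0.83 as deposited and 0.41 adjusted.

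Among the inhibitors, Nfkbia fell and Cyld and Tnfaip3 did not pass. Nfkbia (chr12:56572949-56600841) was the most abundant of the 10 genes in both genotypes, at 38.9 FPKM in KO cells and 96.1 FPKM in WT cells. KO cells thus had 0.405 of the WT level (log2 ratio -1.31, implied standard error 0.31, q = 0.000444 per the authors' deposited table). Unlike Rela, Nfkbia stood low among genes of its own GC content: at 52.9% GC it lay at percentile 5.67 of its GC group, where 20.4% of genes were lower in KO cells at that q. Its adjusted value was -0.73, with an interval of -1.33 to -0.12 that does not include 0, but the adjusted p over the 8996 genes was 0.300 by Benjamini-Hochberg.

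The antisense model linc-Nfkbia-AS has the same span as Nfkbia in the table and stood at 1.27 FPKM in KO and 1.21 FPKM in WT cells (q = 0.97 per the authors' deposited table). The TruSeq RNA kit of the labels keeps no strand, so reads of the 2 models cannot be told apart where they overlap.

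Tnfaip3 (chr10:18720721-18735173), which encodes the ubiquitin-editing enzyme A20, was the second most abundant of the 10 genes, at 33.6 FPKM in KO cells and 39.2 FPKM in WT cells. Its log2 ratio of -0.22 had an interval of -0.68 to 0.23 (q = 0.614 per the authors' deposited table), the adjusted value was -0.14, and with upper quartile scaling the ratio turned to 0.052. Tnfaip3 and Nfkbia are both known to be induced by NF-kB, and the Nfkbia transcript stood at 1.16 per Tnfaip3 transcript in KO cells and 2.45 in WT cells on the FPKM scale. Against the sum of the 5 subunits, Nfkbia stood at 0.712 in KO cells and 1.25 in WT cells.

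Cyld (chr8:91220955-91272352), a deubiquitinase that removes activating chains, carries the seed match shown above and has been reported as a target of miR-181b in human cells. It stood at 27.6 FPKM in KO cells and 21.0 FPKM in WT cells and did not pass (log2 ratio 0.40, interval -0.18 to 0.97, q = 0.425 per the authors' deposited table). Its transcript has 43.2% GC, and its adjusted value was 0.11, with an interval of -0.46 to 0.69. The interval as deposited allows a KO level between 0.882 and 1.96 of the WT level. Over the table, 1558 expressed genes with the letters in their 3′ UTR had a median log2 ratio of 0.08 and 7438 without them one of -0.33, and their median GC contents were 46.5% and 50.8%. The medians of their adjusted values were 0.06 and -0.01. The antisense model linc-Cyld-AS, listed at the span of Cyld, had no test and a level of 0.0966 FPKM in KO and 0.0567 FPKM in WT cells.

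Ikbkb (chr8:23769684-23817035), the catalytic IkB kinase subunit of the classical pathway, stood at 27.6 FPKM in KO cells and 34.8 FPKM in WT cells. Its log2 ratio was -0.34 with an interval of -1.03 to 0.36 (q = 0.622 per the authors' deposited table), and the adjusted value was 0.01.

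Card9 showed the largest difference of the 10 genes. It is an adaptor known from myeloid cells, where it carries signals of C-type lectin receptors to Bcl10 and Malt1. Card9 (chr2:26207831-26215067) stood at 0.948 FPKM in KO cells and 8.15 FPKM in WT cells, 8.60-fold lower in KO (log2 ratio -3.10, implied standard error 0.40, q = 3.4e-12 per the authors' deposited table). Only 27 of the 13834 tested models had a smaller q. The 95% interval put the KO level between 0.0677 and 0.200 of the WT level.

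Card9 was also the only one of the 10 genes called on adjusted values, at -2.13 with an interval of -2.91 to -1.35 and a Benjamini-Hochberg adjusted p of 4.09e-05. At 56.9% GC it lay in a GC group where 51.4% of genes were lower in KO cells at that q and the median log2 ratio was -0.92, and within that group it lay at percentile 0.222. In the order of levels among the 10 genes Card9 stood ninth in KO cells, between Nfkb2 and Relb, and seventh in WT cells, between Cyld and Nfkb2. The spread of the levels is unknown, so the order is a description.

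The neighbour D2Bwg1335e, whose span ends 201 bases from Card9 in mm9, stood at 4.52 FPKM in KO and 9.43 FPKM in WT cells (q = 0.0143 per the authors' deposited table). Gpsm1, listed with that same span, stood at 3.47 and 5.47 FPKM (q = 0.357 per the authors' deposited table). Both log2 ratios, -1.06 and -0.65, were closer to 0 than that of Card9.

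Myeloid and dendritic cell markers were low in both genotypes and mostly lower in KO cells, as were most tested models. Over all tested models the median log2 ratio was -0.17, and 15.3% were lower in KO cells with q under 0.05. The log2 ratio of Map3k7, -0.0145, lay at percentile 58.7 of all tested models, so most of them had a ratio below 0 whether they passed or not. In bulk RNA, fewer cells of a type and less RNA per cell cannot be told apart. Of the 10 macrophage and myeloid markers, 7 were lower in KO cells, and the list summed to 5.35 FPKM in KO and 9.39 FPKM in WT cells, with single genes at 0 to 1.61 and 0 to 2.57 FPKM. Of its 6 tested genes, Itgam passed, at 1.02 FPKM in KO and 2.11 FPKM in WT cells (q = 0.0413 per the authors' deposited table). The adjusted value of Itgam was -1.02 and did not pass (Benjamini-Hochberg adjusted p of 0.196). Of the defining markers, Cd14 was listed at 0 in both genotypes, and Csf1r stood at 0.0826 and 0.123 FPKM, Emr1 at 0.0976 and 0.0959 FPKM.

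The other macrophage markers stood at 0.573 FPKM in KO and 1.49 FPKM in WT cells for Cd68, 1.61 and 2.57 FPKM for Lyz2, 0.900 and 1.20 FPKM for Fcer1g and 0.479 and 1.08 FPKM for Tyrobp. Mpeg1 stood at 0.415 FPKM in KO and 0.544 FPKM in WT cells, and Fcgr3 at 0.176 and 0.167 FPKM. The 7 dendritic cell genes summed to 5.96 FPKM in KO and 16.7 FPKM in WT cells, all lower in KO, with Cd74 the one that passed, at 1.99 and 7.89 FPKM (q = 4.08e-05 per the authors' deposited table). The adjusted value of Cd74 was -0.95 and did not pass (Benjamini-Hochberg adjusted p of 0.312). The WT level of Card9 was above that of every gene on the macrophage list and on the dendritic list. The part of such cells in the Card9 difference was not tested.

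Of 6 B cell markers, Cd79b stood at 15.7 FPKM in KO and 20.1 FPKM in WT cells (q = 0.464 per the authors' deposited table), and Cd79a, the next highest, at 0.178 and 0.212 FPKM. The 5 thymic epithelial markers summed to 0.959 FPKM in KO and 2.37 FPKM in WT cells, mostly from Epcam at 0.932 and 2.30 FPKM (q = 0.00844 per the authors' deposited table), with Foxn1 at 0 and 0.00991 FPKM. The 4 erythroid markers found summed to 0.67 FPKM in KO and 1.39 FPKM in WT cells. Ptcra of the earlier double-negative stage fell, at 9.59 FPKM in KO and 26.1 FPKM in WT cells, and Ccr7 of mature thymocytes stood at 3.20 and 3.04 FPKM (q = 2.89e-05 and 0.950 per the authors' deposited table). The adjusted values of Epcam (-0.81) and Ptcra (-0.43) did not pass, with Benjamini-Hochberg adjusted p values of 0.435 and 0.753.

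A short list of lectin receptors, Syk and related adaptors was chosen after the values of Card9 were seen, and all but Syk stood under 1 FPKM. The receptor gene Clec7a on that list was not found. Bcl10 and Malt1, counted with the other pathway genes, stood at 16.7 and 14.8 FPKM in KO cells and at 19.0 and 10.8 FPKM in WT cells. The lectin receptors Clec4n and Clec4e stood at 0.0959 and 0.00802 FPKM in KO cells and at 0.222 and 0 FPKM in WT cells. The kinase Syk stood at 9.28 FPKM in KO and 11.2 FPKM in WT cells (q = 0.655 per the authors' deposited table). Of the related adaptors, Card10 fell, at 0.0508 FPKM in KO and 0.349 FPKM in WT cells (log2 ratio -2.78, q = 0.0109 per the authors' deposited table), and Card14 stood at 0.0115 and 0.0103 FPKM. Card10 was under the 1 FPKM needed for an adjusted value.

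The promoters of Nfkbia and Card9, the genes with the largest falls, are shown for the presence of the kappa B consensus, the sequence NF-kB binds. They run from 250 bases before to 50 after the start, from RefSeq in GRCm38.p6, both on the reverse strand and written in the direction of the gene, at chr12:55492598-55492897 for Nfkbia and chr2:26360860-26361159 for Card9. Capitals mark matches to the consensus on either strand.
Nfkbia promoter: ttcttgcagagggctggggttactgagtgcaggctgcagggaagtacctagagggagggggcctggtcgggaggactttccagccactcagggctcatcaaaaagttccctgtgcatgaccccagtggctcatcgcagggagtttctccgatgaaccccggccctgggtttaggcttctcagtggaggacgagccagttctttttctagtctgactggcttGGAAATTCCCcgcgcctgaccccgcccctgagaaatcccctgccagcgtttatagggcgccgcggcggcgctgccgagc
Card9 promoter: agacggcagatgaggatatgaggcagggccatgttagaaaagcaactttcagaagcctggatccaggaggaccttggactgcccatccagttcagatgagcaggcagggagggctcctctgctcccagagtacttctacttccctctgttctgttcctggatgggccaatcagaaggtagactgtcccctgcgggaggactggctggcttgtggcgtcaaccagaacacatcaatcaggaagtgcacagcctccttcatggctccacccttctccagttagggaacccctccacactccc

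The Nfkbia promoter held 1 match, 29 bases before the start, and the Card9 promoter held none. Sequences were given for 7 of the 10 genes, and 5 of these 7 held a match in at least 1 promoter (Nfkb2, Rel, Nfkbia, Cyld and Tnfaip3). Rela and Card9 held none. Nfkb2 has 3 promoters in that source, with 5 runs of matches in all, but overlapping promoters share a site that is counted in each. Tnfaip3 has 2 promoters, with 2 runs in one and none in the other. The runs below, the longest of each gene and for Tnfaip3 the one nearest the start, are written on the strand of the gene, and those of Rel and Nfkb2 are 2 matches that overlap, 1 on each strand.
Rel, 92 bases before the start: GGGAAATCCCC
Nfkb2, 39 bases before the start: GGGAATTCCCC
Tnfaip3, 12 bases before the start: GGAAATCCCC
Nfkbia, 29 bases before the start: GGAAATTCCC
Cyld, 155 bases before the start: GGAAAGTCCC

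The consensus occurs in 8.46% of 32851 promoters of 300 bases and in 10.2% of 9321 promoters of the expressed coding genes. Both shares count single promoters. Counted in that way, 7 of the 10 promoters given for these genes held a match, with a site shared between overlapping Nfkb2 promoters. The genes with a match had deposited log2 ratios from -1.31 (Nfkbia) to 0.48 (Rel), and those without stood at -0.83 (Rela) and -3.10 (Card9). No match says only that these letters are not in this window.

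**Figure D3:**
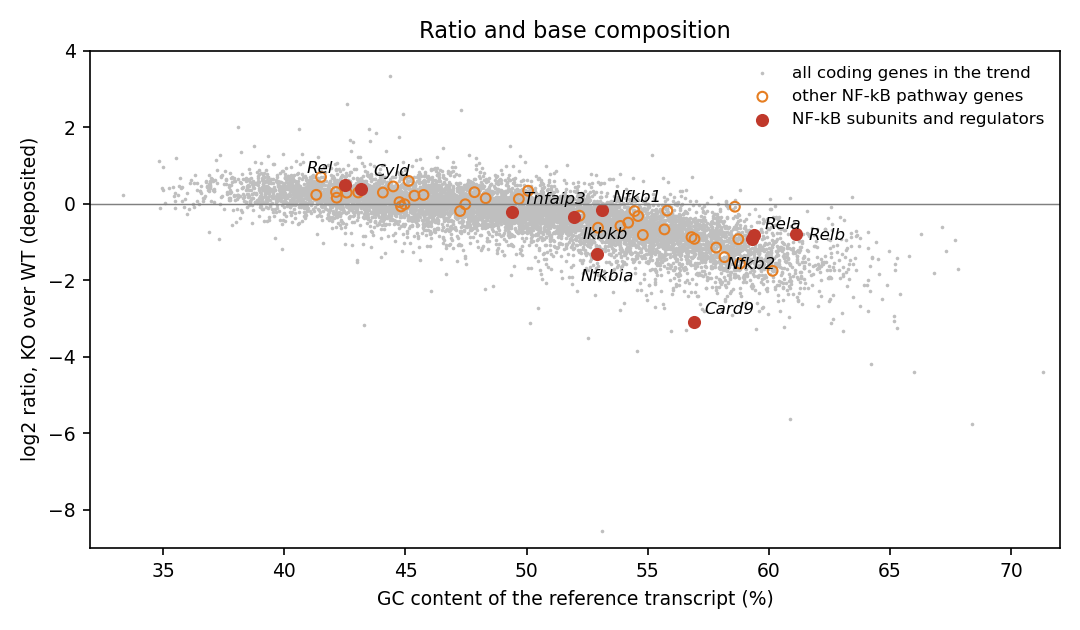
Deposited log2 ratio of KO over WT against the GC content of the reference transcript, for 8996 coding genes (grey), the other NF-kB pathway genes (open circles) and the 10 genes (filled, named). The cloud falls with GC content, Rela, Relb and Nfkb2 lie in its upper part at about 60% GC, and Card9 lies below it at 56.9%.

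The other genes of the pathway were taken as a list of 39, of which 38 were found and 37 were tested. Of these, 8 fell, 1 rose and 28 did not pass, with q under 0.05 per the authors' deposited table, against 15.3% lower and 1.79% higher among all tested models. Their median log2 ratio was -0.07, above the -0.17 of all tested models. All 8 that fell have transcripts of 54.8% to 60.2% GC. Of the 18 tested genes with at least 50% GC 8 fell, with a median of -0.65, and of the 19 under 50% none fell and 1 rose, with a median of 0.23. On adjusted values none of the 37 passed, and the median was 0.08. With ratios centred on their median 5 were lower and 2 higher.

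Among the other inhibitors of the IkB family, Nfkbib, which encodes IkB-beta, stood at 6.14 FPKM in KO and 18.2 FPKM in WT cells (log2 ratio -1.57, q = 4.66e-05 per the authors' deposited table). Nfkbie stood at 12.1 and 19.3 FPKM (q = 0.0671) and the nuclear member Nfkbiz at 6.65 and 5.26 FPKM (q = 0.515), each q per the authors' deposited table. Nfkbib and Nfkbia thus both fell. The adjusted value of Nfkbib was -0.36, and its transcript has 58.8% GC. None of the 4 IkB kinase genes passed: Tbk1, a related kinase, stood at 26.8 FPKM in KO and 23.2 FPKM in WT cells, Ikbke at 18.4 and 23.0 FPKM and Chuk, the partner of the Ikbkb product, at 19.7 and 16.7 FPKM.

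In the complex that joins the T cell receptor to the IkB kinase, Bcl10 stood at 16.7 FPKM in KO and 19.0 FPKM in WT cells, and the kinase Prkcq, which acts before it, at 77.4 and 71.0 FPKM. Neither passed.

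Of the TRAF adaptors and IAP ubiquitin ligases, Traf2 fell, at 11.6 FPKM in KO and 20.4 FPKM in WT cells (q = 0.025 per the authors' deposited table). Birc2 stood at 31.6 FPKM in KO and 25.8 FPKM in WT cells, Traf6 at 28.7 and 24.5 FPKM and Birc3 at 16.1 and 16.2 FPKM, none past the threshold. Of the upstream kinases and their binding proteins, Tab1 (7.10 FPKM in KO, 18.7 FPKM in WT) and the alternative pathway kinase Map3k14 (3.76 and 7.16 FPKM) fell. Tab3 rose, at 7.98 FPKM in KO and 4.92 FPKM in WT cells (q = 0.0436 per the authors' deposited table). Tab3 has 41.5% GC and an adjusted value of 0.38, and holds the seed letters in its 3′ UTR. With Tab3, 8 of the 37 listed pathway genes with an annotated 3′ UTR hold them, a set other than the 37 tested. That is 21.6%, against 15.4% of all coding genes with a 3′ UTR and 17.3% of the 8996 expressed coding genes. Ikbkg and Traf6 are among the 8, with 3′ UTRs of 5419 and 4170 bases. At 4000 to 6000 bases, 47.3% of expressed genes hold the letters, and the share of the pathway genes was not tested. Ratios of these 8 were of both signs, among them Traf1 at -0.58 and Itch at 0.31, neither of which passed. Tab2 stood at 132 FPKM in KO and 120 FPKM in WT cells and Map3k7 at 15.1 and 15.2 FPKM, neither past the threshold.

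Of the 4 genes for linear ubiquitin chains, 2 fell and 2 did not pass, against 15.3% lower among all tested models. Rbck1 stood at 13.8 FPKM in KO and 46.6 FPKM in WT cells (log2 ratio -1.76, q = 3.57e-07 per the authors' deposited table), Sharpin at 20.0 and 36.7 FPKM (q = 0.0093 per the authors' deposited table). The third subunit of that ligase, Rnf31, stood at 16.0 and 16.9 FPKM, with a standard error of 0.99 that leaves its ratio poorly known. Fam105b, a deubiquitinase of these chains, stood at 12.2 and 17.3 FPKM (q = 0.251 per the authors' deposited table). The 4 transcripts have 54.2% to 60.2% GC, and the adjusted value was -0.42 for Rbck1, 0.12 for Sharpin, 1.04 for Rnf31 and 0.23 for Fam105b, none of them called. Of the partners of A20, Tnip1 fell, at 17.0 FPKM in KO and 37.6 FPKM in WT cells (q = 0.000747 per the authors' deposited table), and Tax1bp1 (118 and 106 FPKM) and Itch (36.0 and 29.1 FPKM) did not pass. None of the 4 genes of the ubiquitin ligase for IkB passed, among them Skp1a at 108 FPKM in KO and 105 FPKM in WT cells, Cul1 at 32.8 and 26.8 FPKM and Fbxw11 at 31.5 and 25.6 FPKM.

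**Figure D4:**
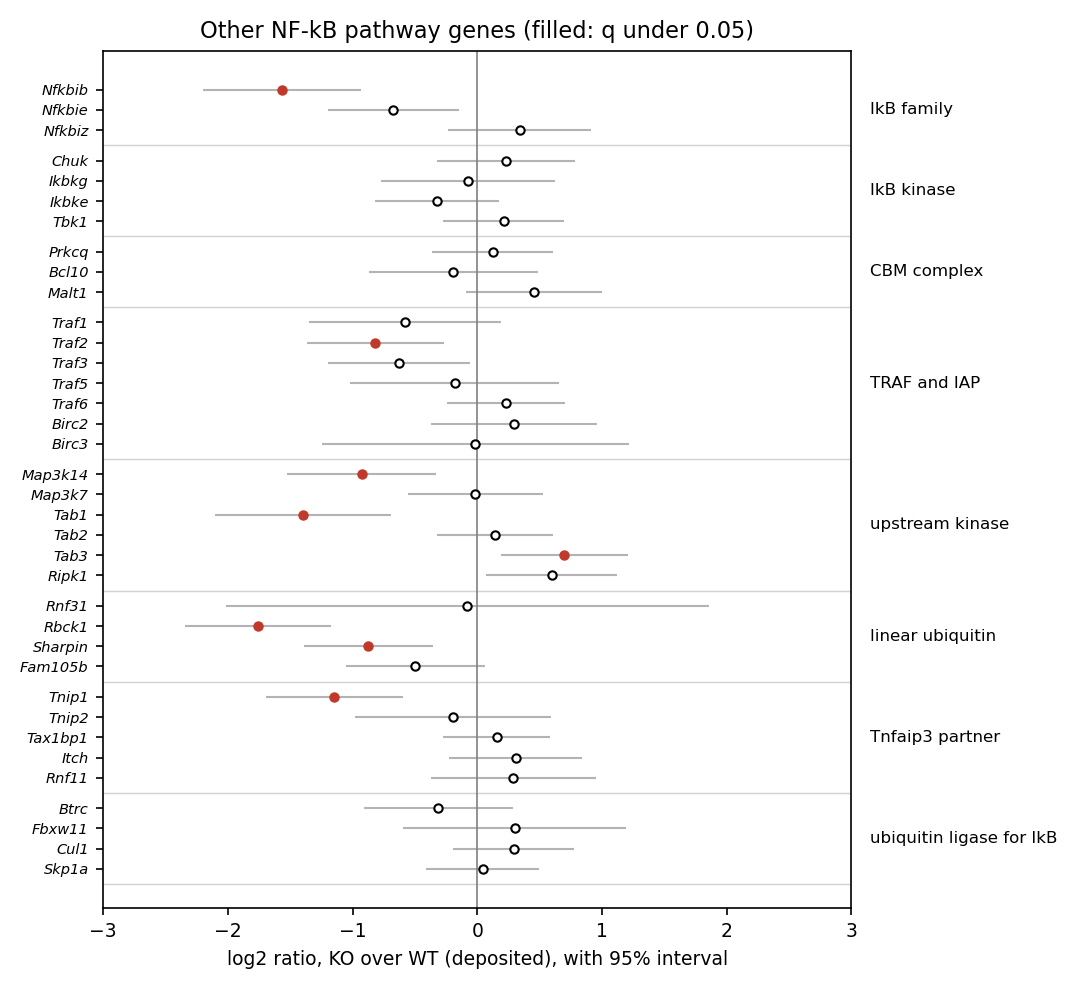
Deposited log2 ratio of KO over WT of 36 of the 37 tested pathway genes beside the 10, with 95% intervals from the implied standard error, grouped by role, and filled where q was under 0.05. The filled points are 7 below 0, from -0.82 (Traf2) to -1.76 (Rbck1), and Tab3 at 0.70.

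Of 22 genes known to be induced by NF-kB, 15 were tested, 1 rose, 2 fell and 12 did not pass, with a median log2 ratio of -0.22. The share lower, 13.3% of the tested genes, was near the 15.3% of all tested models, whose median log2 ratio was -0.17. Il2ra, a chain of the interleukin-2 receptor, rose to 29.4 FPKM in KO cells, against 2.89 FPKM in WT cells. Myc stood at 4.91 FPKM in KO and 13.1 FPKM in WT cells and the survival gene Bcl2l1 at 62.7 and 118 FPKM, and both fell (q = 0.00158 and 0.00247 per the authors' deposited table). Ltb, which encodes lymphotoxin beta, stood at 68.6 FPKM in KO and 98.3 FPKM in WT cells (q = 0.204 per the authors' deposited table), and Cflar, an inhibitor of caspase activation, at 29.1 and 21.6 FPKM (q = 0.486 per the authors' deposited table).

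Of the 15, 8 had an adjusted value. Those of Il2ra (3.19) and Ltb (1.25) passed as higher in KO cells, with Benjamini-Hochberg adjusted p values of 4.78e-20 and 0.00132. Ltb has 62.6% GC and was at -0.52 as deposited. Myc and Bcl2l1, with 58.1% and 55.9% GC, had adjusted values of -0.18 and -0.11. Tnf stood at 1.27 FPKM in KO and 1.19 FPKM in WT cells, and Il2, Ccl5 and Ccl3 were listed at 0 in KO cells and at 0.0136, 0.011 and 0.0177 FPKM in WT cells.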

How the data were processed

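RNA was sequenced in 3 KO and 3 WT libraries, made with the TruSeq RNA kit per the labels' protocols and aligned with TopHat2 to mm9 per the submitters' processing notes. The testing tool and annotation are not given in the sources. The authors deposited 1 FPKM value per genotype, p-values and q-values and, per the file headers, 2 columns of scores: a log2 ratio of WT over KO, turned here, and a signed statistic. Its quotient with the ratio gave the implied standard error. No depth was used here, so p-values may measure technical spread.

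GC content, length and 3′ UTRs came from 1 GENCODE M21 transcript per gene (GRCm38, APPRIS principal first, then longest). No coordinate was converted. A robust regression (statsmodels 0.14.6) on cubic splines of 5 pieces was fitted to 8996 tested coding genes of 1 FPKM or more with transcripts up to 1.2 times the model, and tested on simulated data.

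The 10 genes and all lists were chosen with earlier results of these data known. The 10, the called genes of the pathway and target lists and the 3 most abundant genes of each role were due to be named. A called gene of the pathway list is not reported by name, and some others were chosen after their values were seen. Alternatives were other scalings, filters, thresholds and pseudocounts, and, added after seeing the data, an adjustment for GC content alone. Some genes counted in the lists are not reported by name here.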

Additional observations from a re-analysis of the deposited data

How the results depend on the processing

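No paired analysis was possible because the table holds 1 pooled value per genotype, and for the same reason no replicate could be left out. No member had a second gene model to try. Members called lower numbered 3 as deposited and 1, Card9, on values adjusted for GC content and length or for GC content alone. Rela was at -0.66 (adjusted p of 0.0659) when ratios were centred on their median, at -0.55 (0.137) with upper quartile scaling, and at 0.41 and 0.45 on the 2 adjusted scales. Nfkbia was at -0.73 (0.300) and -0.80 (0.177) on them. There Nfkb1 turned to 0.27 and 0.35, Nfkb2 to 0.28 and 0.33, Relb to 0.66 and 0.68 and Ikbkb to 0.014 and 0.063, and with upper quartile scaling Nfkb1 turned to 0.10 and Tnfaip3 to 0.052. Centring shifts every ratio by 0.17 and upper quartile scaling by 0.28. Card9 was at -2.23 with a pseudocount of 1, which gives no test; adjusted for GC content and length it was -2.13 and called.

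The other pathway genes numbered 8 lower and 1 higher as deposited, 5 and 2 when centred, 4 and 2 with upper quartile scaling, and 0 in both directions on either adjusted scale; at a q under 0.01, 0 were higher. Target genes numbered 2 lower and 1 higher, 1 lower with upper quartile scaling, and 0 lower and 2 higher on either adjusted scale, where 8 of 15 had a value. Over all models, 2120 were lower and 247 higher, with 500 higher when centred, 1204 lower and 843 higher with upper quartile scaling, 90 and 77 adjusted for both, 138 and 85 adjusted for GC content alone, 1401 and 104 at a q under 0.01 and 409 higher at a q under 0.1. The cause was not tested.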
